A study of Drosophila melanogaster with 42 samples.

Results

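The 9 X-linked genes that the study drew as examples of binding are described here: Pp2C1, PhKgamma, Gbeta13F, Ubi-p5E, ben, Remo, CG2202, CG4645 and CG6659. They were taken by name from 3725 genes annotated on the X chromosome of Drosophila melanogaster. A peak was assigned to a gene when it overlapped the gene body or the 5 kb on either side of it. The 9 windows held 234 of the 39130 peak records in 6 lists, and no window overlapped that of another of the 9 genes. The genes were drawn to show binding, so their peaks are described and were not tested.

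The lists came from ChIP-seq of MSL1, MSL2 and MSL3 in whole adult flies of 3 days, with 1 list per protein for M1[WT] males and 1 for M1[WT]+MSL2 females. M1[WT] males were msl-1γ269/msl-1L60, a combination without endogenous MSL1, and homozygous for Ubi:msl-1WT. M1[WT]+MSL2 females had the same msl-1 null background and carried 1 copy of Ubi:msl-1WT and 1 copy of Ubi:msl-2WT-FLAG. The transgenes were driven by the promoter of Ubi-p63E, a ubiquitin gene other than Ubi-p5E that is active in most cells, and were inserted at 86Fb. MSL1 in these flies, and MSL2 in the females, was therefore not made from its own promoter. Of 42 libraries, 11 were ChIP libraries of these groups: 2 replicates each, and 1 for MSL1 in males. Peaks were called by the authors against nonspecific IgG, and the 3 IgG libraries among the samples, 2 of females and 1 of males, are from flies labelled wt and without the transgenes. Fold enrichments and −log10 p values thus compare ChIP and control chromatin that, as far as the labels tell, differ in genotype. The title of the male MSL3 samples gives M1[WT], while their genotype label also names the MSL2 transgene. The chromatin was from whole flies, so weaker binding in every cell and binding in fewer cells cannot be told apart.

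The MSL complex raises transcription of the single X chromosome of males. MSL1 and MSL2 form its core and bring it to high-affinity sites, which often hold GA-rich repeats, and MSL3 binds the histone mark of transcribed chromatin and is found over the bodies of active genes. Females normally make no MSL2, and its expression lets the complex assemble on their X chromosomes. roX1 and roX2 are the X-linked genes of the RNAs of the complex and hold sites of this kind.

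Female lists were shorter. MSL1 had 905 peaks in females and 21980 in males, MSL2 had 2460 and 6110, and MSL3 had 1546 and 6129. The strongest MSL1 and MSL2 peak of each sex, by −log10 p, lay at roX1 (rank 1 in these 4 lists). The male MSL1 list was made from 1 replicate without the IDR step, which keeps peaks whose ranks repeat between 2 inputs. Widths, −log10 p values and ranks were therefore read within a list. The read depth of the libraries is unknown here. For the other 5 lists the 2 inputs of the IDR step were given beside each peak, and their difference is used below as the spread. The sources used here do not say whether these inputs were the replicates or parts of pooled reads.

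The female MSL2 summits, the bases with the highest MSL2 signal, are shown first, since the positions of the other summits are given from them. The sequences are the reference strand of the dm6 assembly from RefSeq, 5′ to 3′, 50 bases on each side of the summit. For Ubi-p5E, where the summit lies in the 5′ UTR, 14 bases on each side are given. Capitals mark runs of 6 or more alternating G and A, or C and T, which are the same repeat on the other strand. PhKgamma and Remo, which had such runs, are given first.
PhKgamma, chrX:11703240-11703340: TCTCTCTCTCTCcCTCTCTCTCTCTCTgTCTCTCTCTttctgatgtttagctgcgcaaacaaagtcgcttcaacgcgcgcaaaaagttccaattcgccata
Remo, chrX:13293646-13293746: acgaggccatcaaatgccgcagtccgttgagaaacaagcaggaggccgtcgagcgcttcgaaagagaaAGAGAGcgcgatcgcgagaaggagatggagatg
Pp2C1, chrX:4684497-4684597: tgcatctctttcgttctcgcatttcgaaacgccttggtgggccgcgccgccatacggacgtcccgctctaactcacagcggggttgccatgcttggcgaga
Gbeta13F, chrX:15860603-15860703: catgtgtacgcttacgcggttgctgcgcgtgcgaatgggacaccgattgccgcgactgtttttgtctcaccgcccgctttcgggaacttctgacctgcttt
ben, chrX:13996873-13996973: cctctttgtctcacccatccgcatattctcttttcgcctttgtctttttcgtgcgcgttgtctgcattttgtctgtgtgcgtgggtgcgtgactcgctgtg
CG2202, chrX:10851654-10851754: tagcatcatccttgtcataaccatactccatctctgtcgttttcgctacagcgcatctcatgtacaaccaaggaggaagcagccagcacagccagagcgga
CG4645, chrX:12910945-12911045: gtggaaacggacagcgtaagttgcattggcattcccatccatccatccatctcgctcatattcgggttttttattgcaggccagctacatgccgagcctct
CG6659, chrX:18654449-18654549: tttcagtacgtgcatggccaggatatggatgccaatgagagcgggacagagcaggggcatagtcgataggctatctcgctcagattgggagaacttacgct
Ubi-p5E, chrX:6279340-6279368: actctcgggcggtaggttactttgttttc

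At PhKgamma the repeat was long. The stretch shown held runs of 12, 14 and 9 bases, interrupted by single bases, in the intron just before the coding exon with the summit, and the nearest run ended 14 bp from the summit. Remo had 1 run of 6 bases, 18 bp from the summit and within the coding sequence. In the other 7 stretches no run of 6 was found. When 100 bp on each side of the summit were searched for GAGAGAGA or AGAGAGAG on either strand, 1 of the 9 genes, PhKgamma, had a match in females and the same gene had it in males. The same search matched at 10.1% of 1577 X-linked and 8.77% of 878 autosomal female MSL2 summits, and at 14.3% of 2351 X-linked and 8.63% of 3743 autosomal male summits. Of 116786 windows of 201 bp along the X chromosome, 1.97% matched. The longest runs within 100 bp were 14 bases at PhKgamma, 7 at Pp2C1 and Ubi-p5E, 6 at Remo, 5 at ben, CG2202 and CG6659, and 4 at Gbeta13F and CG4645. At 8 of the 9 summits there was thus no long alternating repeat. A missing match says only that these letters are not in the window.

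Each of the 9 genes had a peak of MSL1, MSL2 and MSL3 in both sexes. In females, 35.4% of all X-linked genes had an MSL1 peak by the same rule, 55.6% an MSL2 peak and 47.7% an MSL3 peak. In males these shares were 76.8%, 62.4% and 62.3%. The X-linked genes counted include transposable elements and non-coding genes, whereas the 9 genes are all protein-coding. Among the 2196 protein-coding X-linked genes the shares were 45.9%, 69.9% and 62.1% in females. In males they were 90.3%, 78.1% and 76.9%. Peaks of the 3 proteins together were found at 9 of 9 genes in each sex, beside 31.7% of X-linked genes in females and 58.5% in males. Among the protein-coding ones the shares with all 3 were 41.8% in females and 74.3% in males. The windows differed in how many records they held. Those of MSL1 in females numbered between 1 (ben, CG6659) and 6 (PhKgamma) per gene, and 25 in all. In males there were 57 MSL1 records, with 3 at ben and at most 12 per gene.

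**Figure D1:**
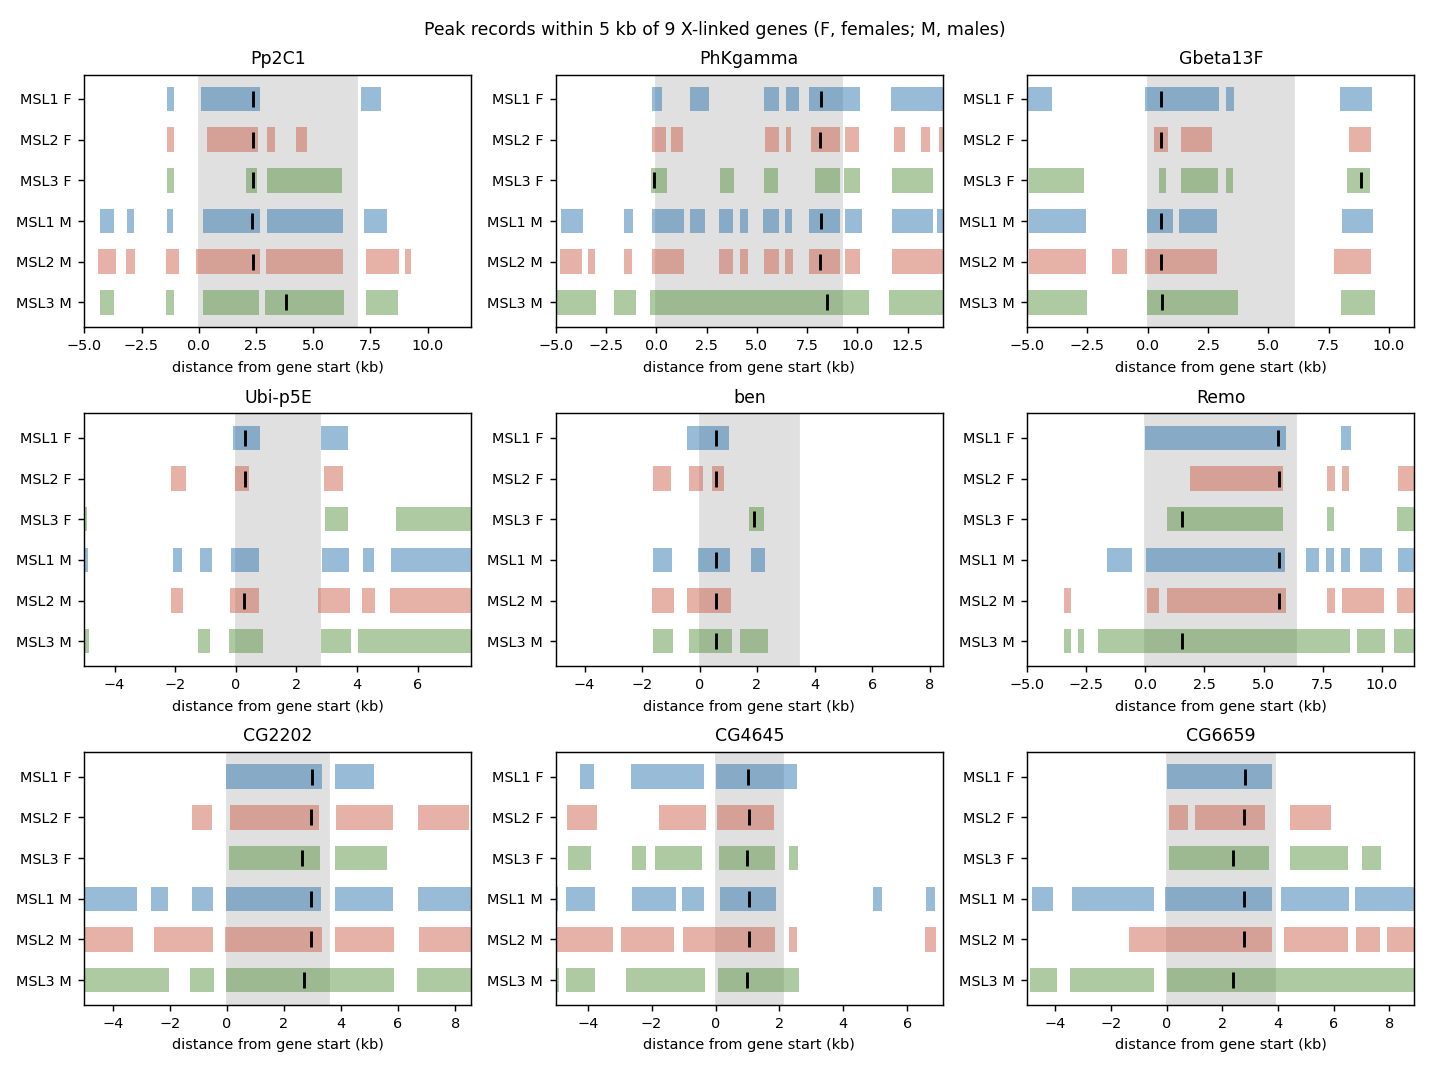
Peak records at the 9 genes in the 6 lists (F, females; M, males). The x axis is the distance from the gene start in kb along the gene, grey is the gene body, coloured bars are peak records cut at the window edge and black ticks are summits of the strongest record of each list where they lie in the window. MSL1 and MSL2 ticks line up in each gene apart from male MSL1 at Ubi-p5E, while MSL3 ticks are often elsewhere.

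Ranks by −log10 p order the peaks within each list, with 1 the strongest. Gbeta13F and Pp2C1 stood high for MSL1 and MSL2, and PhKgamma, CG2202, CG4645 and CG6659 stood high for MSL3. Ubi-p5E, ben and Remo had the 3 weakest of the 9 peaks in each of the 4 MSL1 and MSL2 lists. The strongest peaks had a median rank of 43 of 905 (MSL1), 21 of 2460 (MSL2) and 293 of 1546 (MSL3) in females, and of 37 of 21980, 32 of 6110 and 76 of 6129 in males. The male MSL3 value of 76 is that of Ubi-p5E, whose strongest MSL3 record in the window has its summit in another gene. With records over the gene body only, the male MSL3 median was 152 and the female one 177.5. The female value is over 8 genes, since Ubi-p5E, the weakest at rank 1269, had no such record. As a percent of the list, the medians were 4.75, 0.854 and 18.95 in females and 0.168, 0.524 and 1.24 in males. For the protein-coding X-linked genes with a peak, the medians of the strongest peak were 23.8, 20.7 and 34.3 percent in females and 3.10, 8.67 and 5.40 percent in males. All 9 genes ranked better than that median for MSL1 and MSL2 in both sexes, whereas for MSL3 6 of 9 did so in females and 8 of 9 in males. The male count includes Ubi-p5E through that neighbouring record. With records over the gene body only, 7 of 9 ranked better for MSL3 in males, both against the same median and against that of coding genes read in the same way. In females 6 of 9 did so against the same median and 7 of 9 against that of coding genes read in the same way.

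Pp2C1 (FBgn0022768, chrX:4679988-4686903, minus strand) encodes a protein phosphatase of the 2C type. Its MSL1 peak ranked 16 in females and 5 in males. Its MSL2 peak ranked 9 and 10, with fold enrichments over IgG of 39.8 and 91.2. The MSL3 peaks ranked 293 and 152, and the 2 inputs of the female MSL3 list placed it at 293 and 381. The summits of MSL1 and MSL2 in both sexes lay within 19 bp of each other in an intron, 2356 bp from the gene start for female MSL2. The strongest MSL3 record of females had its summit 3 bp from that of MSL2 and was 476 bp wide. In males a record in the coding exons, with the summit 1434 and 1437 bp away in the 2 inputs, outranked the record at the MSL2 site (rank 207) by −log10 p. By fold enrichment the order was the reverse, with 19.9 at the MSL2 site and 18.7 in the coding exons. Pp2C1 thus combined some of the highest MSL1 and MSL2 ranks of the 9 genes with an intermediate MSL3 rank.

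Gbeta13F (FBgn0001105, chrX:15860115-15866175, plus strand), a beta subunit of heterotrimeric G proteins, had the same combination. MSL1 ranked 5 in females and 12 in males, and MSL2 ranked 11 and 18, with fold enrichments of 38.9 and 71.8. MSL3 ranked 295 and 213. The MSL1 and MSL2 summits spanned 17 bp in an intron near the gene start, and that of female MSL2 was 538 bp from it. In females the strongest MSL3 record of the window was not at this site: its summit lay in a coding exon of Gapdh2, a neighbouring gene for a glycolytic enzyme, 8314 bp away. A record 322 bp wide covered the MSL2 site and ranked 320. By fold enrichment this record was the strongest, with 4.21 against 3.95 at Gapdh2. In males the strongest MSL3 record, 3798 bp wide, covered the site, and its summits in the 2 inputs were 18 and 1538 bp from the female MSL2 summit. The 3 female MSL3 records of highest −log10 p ranked between 295 and 320, with −log10 p values of 45.9 and 42.4 for the first and the last of them.

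PhKgamma (FBgn0011754, chrX:11695137-11704394, plus strand) encodes the catalytic subunit of phosphorylase kinase, which activates glycogen breakdown. MSL1 ranked 79 in females and 37 in males, MSL2 ranked 17 and 22, and MSL3 ranked 15 and 63. The MSL1 and MSL2 summits lay within 55 bp in a coding exon, 8153 bp from the gene start for female MSL2, at the GA repeat shown above. The female MSL1 summits of the 2 inputs also differed by 55 bp. Here the strongest MSL3 record of females stood at the other end of the gene, with its summit 107 bp upstream of the gene start. It was 772 bp wide, with a fold enrichment of 17.1, and its summit differed by 6 bp between the inputs. MSL2 of females had its second record at the same place, with a summit 118 bp upstream and rank 191. The MSL3 record at the MSL2 site of females ranked 157. In males 1 MSL3 record of 10877 bp covered the whole gene body, with its summit in the 3′ UTR, and the record had widths of 10862 and 4242 bp in the 2 inputs.

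Ubi-p5E and ben belong to the ubiquitin system, Ubi-p5E as a ubiquitin gene and ben (bendless) as a ubiquitin-conjugating enzyme. At both, the MSL1 and MSL2 records over the site were at most 1525 bp wide and lay near the gene start, and female MSL3 had no record over the site. Ubi-p5E (FBgn0086558, chrX:6276876-6279647, minus strand) had its MSL2 summits in the 5′ UTR, 293 bp from the gene start in females and 252 bp in males, in peaks of 443 and 971 bp that ranked 75 and 87. Its MSL1 peak ranked 118 in females. In males the strongest MSL1 record of the window, rank 216, had its summit outside it, 8358 bp upstream between genes, and the record at Ubi-p5E itself ranked 251. No female MSL3 record overlapped the gene body. The strongest of the window ranked 1269 of 1546, with its summit in a coding exon of Top3beta, a topoisomerase gene, 6396 bp upstream. In males the record at the gene ranked 1412 of 6129, and rank 76 belonged to a record of 16710 bp that reached into the window, with its summit in mldr, 12935 bp upstream. Male MSL1 rank 216 and MSL3 rank 76, and female MSL3 rank 1269, are therefore values of the neighbourhood and not of Ubi-p5E.

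ben (FBgn0000173, chrX:13996345-13999805, plus strand) had MSL1 and MSL2 summits within 6 bp of each other over the 4 lists, in an intron 578 bp from the gene start for female MSL2. This was the smallest span among the 9 genes. MSL1 ranked 118 in females and 95 in males, and MSL2 ranked 43 and 108. The female MSL2 peak was 427 bp wide and the male one 1525 bp. The single female MSL3 record lay in a coding exon, 1329 bp from the MSL2 summit, and did not cover it. It ranked 747 and 1209 in the 2 inputs, whose summits were 93 bp apart. In males MSL3 had its summit at the MSL2 site, 19 and 4 bp away in the inputs, with rank 952. No record of any list covered the 5 kb downstream of ben.

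Remo (remoulade; FBgn0030466, chrX:13288051-13294433, plus strand) had MSL1 and MSL2 summits within 25 bp in a coding exon near the end of the gene, 5645 bp from the gene start for female MSL2. MSL1 ranked 173 in females and 137 in males, MSL2 ranked 47 and 80, and MSL3 ranked 710 and 234. The MSL1 peaks were 5938 and 5911 bp wide and covered 93.0% and 92.6% of the gene body. The listed MSL3 summits were in a coding exon near the gene start, 1528 and 1543 bp from it. The inputs disagreed on this: in females their MSL3 summits were 4117 and 87 bp from the MSL2 summit, and in males 4108 and 52 bp. The distance of the listed MSL3 summits at Remo is thus within the spread of the inputs. The female rank was also uncertain, with 710 in one input and 237 in the other.

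CG2202 (FBgn0030240, chrX:10848757-10852327, plus strand), CG4645 (FBgn0030435, chrX:12909953-12912070, plus strand) and CG6659 (FBgn0030946, chrX:18653392-18657286, minus strand) encode uncharacterized proteins. At these genes the strongest peak ranked 62 or better for each protein in each sex. The female MSL2 summit lay in an intron at each of the 3, while the male one at CG2202, 3 bp away, lay in a coding exon. CG2202 had MSL1 ranks of 43 in females and 32 in males, MSL2 ranks of 21 and 32 and MSL3 ranks of 50 and 10. CG4645 had ranks of 24 and 55 for MSL1, 19 and 42 for MSL2 and 43 and 26 for MSL3. CG6659 had ranks of 41 and 15 for MSL1, 22 and 16 for MSL2 and 62 and 19 for MSL3. In the 2 inputs of the MSL3 lists the 3 genes stayed between ranks 40 and 69 in females and between 8 and 29 in males. The fold enrichment of male MSL3 was 47.7 at CG2202, 42.4 at CG4645 and 35.6 at CG6659, the 3 largest of the 9 genes.

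**Figure D2:**
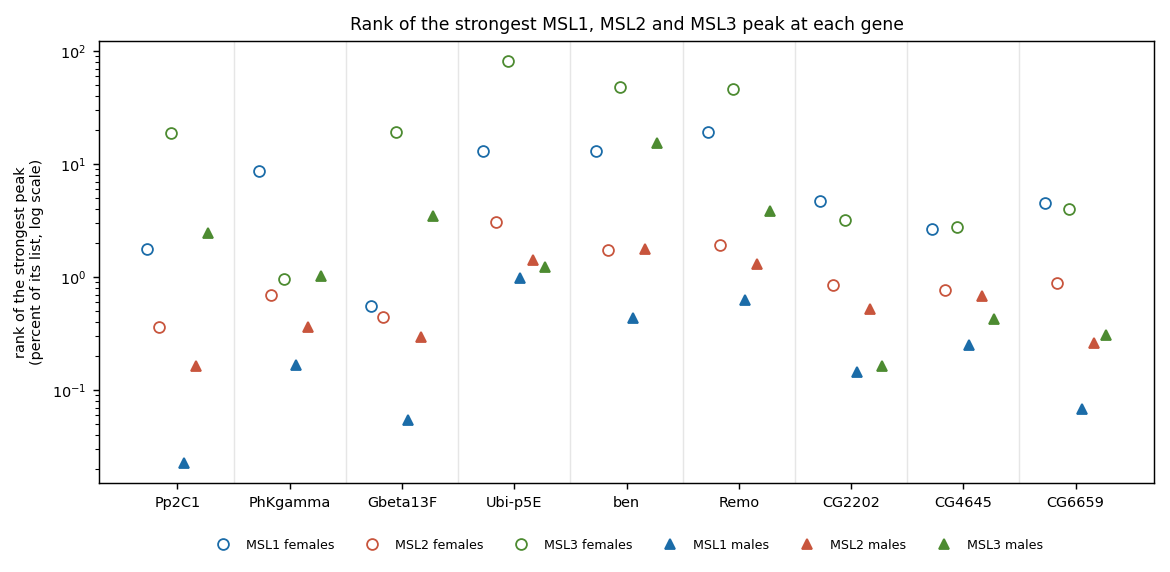
Rank of the strongest peak of each list at the 9 genes, as a percent of the list on a log scale. Open circles are females and triangles males, coloured by protein, and lower is stronger. Female MSL3 spans 0.970 percent (PhKgamma) to 82.1 percent (Ubi-p5E), and female MSL2 0.366 percent (Pp2C1) to 3.05 percent (Ubi-p5E). Lists differ in length, so points are compared within a list.

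MSL1 and MSL2 had their strongest summits at the same place in both sexes, apart from male MSL1 at Ubi-p5E. The study built its clusters of X-linked sites from overlapping MSL1 and MSL2 peaks of M1[WT]+MSL2 females. Shared positions may therefore have been part of the choice of its examples. In females the strongest MSL1 and MSL2 summits lay within 100 bp at 9 of 9 genes, with a median distance of 16 bp and a maximum of 55 bp. In males they did so at 8 of 9, with a median of 8 bp. Female and male MSL2 summits were within 100 bp at 9 of 9 genes, with a median of 4 bp and a maximum of 41 bp, and MSL1 summits at 8 of 9. How often male and female summits coincide at other X-linked peaks was not counted, so this is not shown to be particular to the 9 genes. The 2 inputs placed the summits of these genes at a median of 6 bp (females) and 2 bp (males) apart for MSL2, and 16 bp for female MSL1. The female MSL1 to MSL2 distance was therefore of the size of the spread between inputs.

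For MSL3 the distance depended on which record was read. By −log10 p the strongest MSL3 and MSL2 summits were within 100 bp at 2 of 9 genes in females, Pp2C1 and CG4645, and at 3 of 9 in males, Gbeta13F, ben and CG4645. The median distances were 1329 and 358 bp. With the strongest record taken by fold enrichment, Gbeta13F was added in females and Pp2C1 in males, which gave 3 and 4 genes and medians of 399 and 264 bp. At CG2202 the MSL3 summits of the 2 inputs were 327 and 253 bp from the MSL2 summit in females, and 251 and 315 bp in males. At CG6659 they were 399 and 394 bp away in females, and 387 and 420 bp in males. These distances exceeded the differences between inputs, which were at most 74 bp at both genes. At both genes and in both sexes the MSL3 summit lay in a coding exon on the side of the gene start. CG4645 had the same side but a distance of 46 to 63 bp. Of the 45 strongest records with 2 inputs, 41 had input summits within 100 bp. The 4 others were MSL3 at Remo in females and males, MSL3 at Gbeta13F in males and MSL1 at CG2202 in females.

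**Figure D3:**
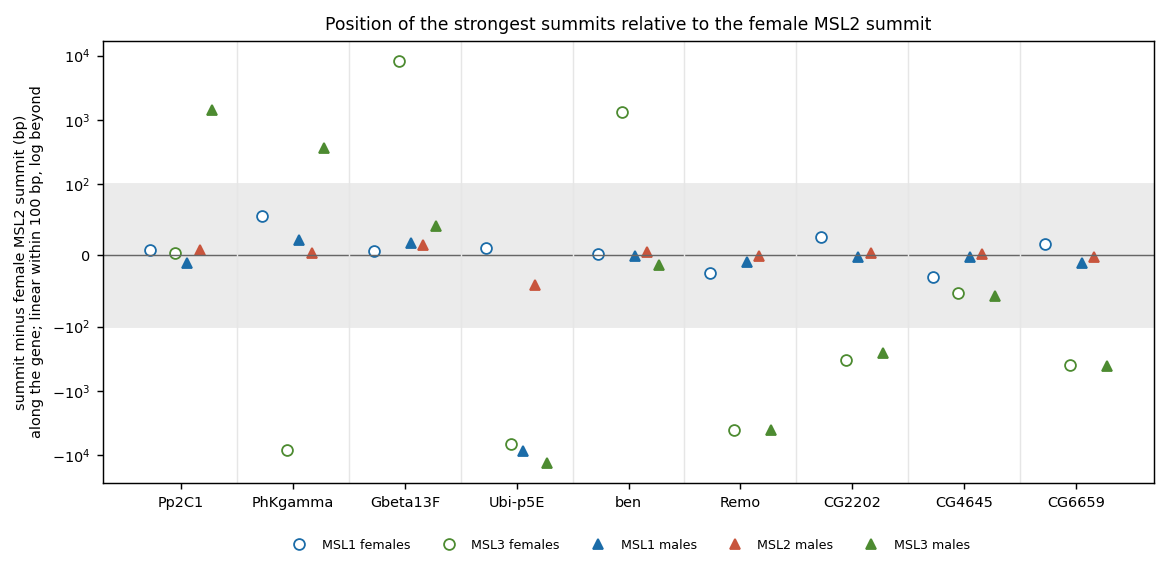
Distance of the strongest summit of each list from the female MSL2 summit, in bp along the gene (positive is away from the gene start), linear within the grey band of 100 bp and log beyond it. Open circles are females and triangles males. MSL1 and male MSL2 fall in the band apart from male MSL1 at Ubi-p5E, and MSL3 leaves it at 7 of 9 genes in females and 6 of 9 in males.

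Most windows held an MSL3 record at the MSL2 site as well. The female MSL2 summit was covered by an MSL1 record at 9 of 9 genes in each sex. An MSL3 record covered it at 7 of 9 genes in females, ben and Ubi-p5E being the exceptions, and at 9 of 9 in males. The summit of the covering MSL3 record was within 100 bp at 4 of the 7 genes in females and 5 of 9 in males, beside 2 and 3 of 9 for the strongest records. Among the 100 X-linked MSL2 peaks of highest −log10 p, MSL3 covered the summit at 83 in females and 100 in males, with the MSL3 summit within 100 bp at 37 and 36. MSL1 covered 94 and 100 of them, with its summit within 100 bp at 81 and 91. The 9 genes were not set apart from these peaks by a test.

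The strongest MSL2 summit of females lay in an intron at 6 genes, in a coding exon at 2 and in the 5′ UTR at 1. In males these counts were 5, 3 and 1. CG2202 made the difference: its male summit lay in a coding exon, 3 bp from the female one. The class of a summit at an exon edge is thus not firm. Of the 100 X-linked female MSL2 summits of highest −log10 p, 42 lay in introns, 11 in coding exons and 14 in 5′ UTRs, and of all 1577 X-linked ones 24.4% lay in introns. The strongest MSL3 summit lay in a coding exon at 7 genes in females and 6 in males. These counts include exons of neighbouring genes. In females these were Gapdh2 (window of Gbeta13F) and Top3beta (window of Ubi-p5E), and in males mldr (window of Ubi-p5E). Over all X-linked peaks, 48.1% of female MSL2 and 73.6% of female MSL3 summits were in coding exons, and 41.0% and 65.0% in males, while coding exons make up 16.7% of the chromosome. Along the gene, the female MSL2 summit stood at 8.88% of the body from the gene start in Gbeta13F, 10.6% in Ubi-p5E, 16.7% in ben, 34.1% in Pp2C1, 49.2% in CG4645, 71.6% in CG6659, 82.5% in CG2202, 88.1% in PhKgamma and 88.5% in Remo. There was no common position from the gene start.

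The genes fell into a pair of groups by their coverage in females. At Remo, CG2202, CG4645 and CG6659 peaks filled most of the gene body: MSL1 of females covered 93.0%, 93.3%, 99.2% and 97.3%, MSL2 61.9%, 87.7%, 84.1% and 82.0%, and MSL3 77.1%, 88.9%, 83.5% and 92.0%. At the other 5 genes MSL1 of females covered 29.2% to 53.9%, MSL2 15.2% to 44.1%, and MSL3 0 to 54.7% of the body. In none of the 3 female lists did the groups overlap, and the split was made after the values were seen. The female records have the positions of the first IDR input. At Remo the MSL2 record was 3953 bp wide in that input and 1309 bp in the second. The MSL1 record there was 5938 and 4074 bp wide. Coverage was not computed from the second inputs, so the split is not shown to hold in them. In males Pp2C1 (84.4% for MSL1, 87.3% for MSL2 and 86.02% for MSL3) was among the covered genes, and PhKgamma was covered to 100.0% by MSL3. Ubi-p5E stayed between 27.8% and 32.4% and ben between 31.4% and 61.3% in the 3 male lists.

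**Figure D4:**
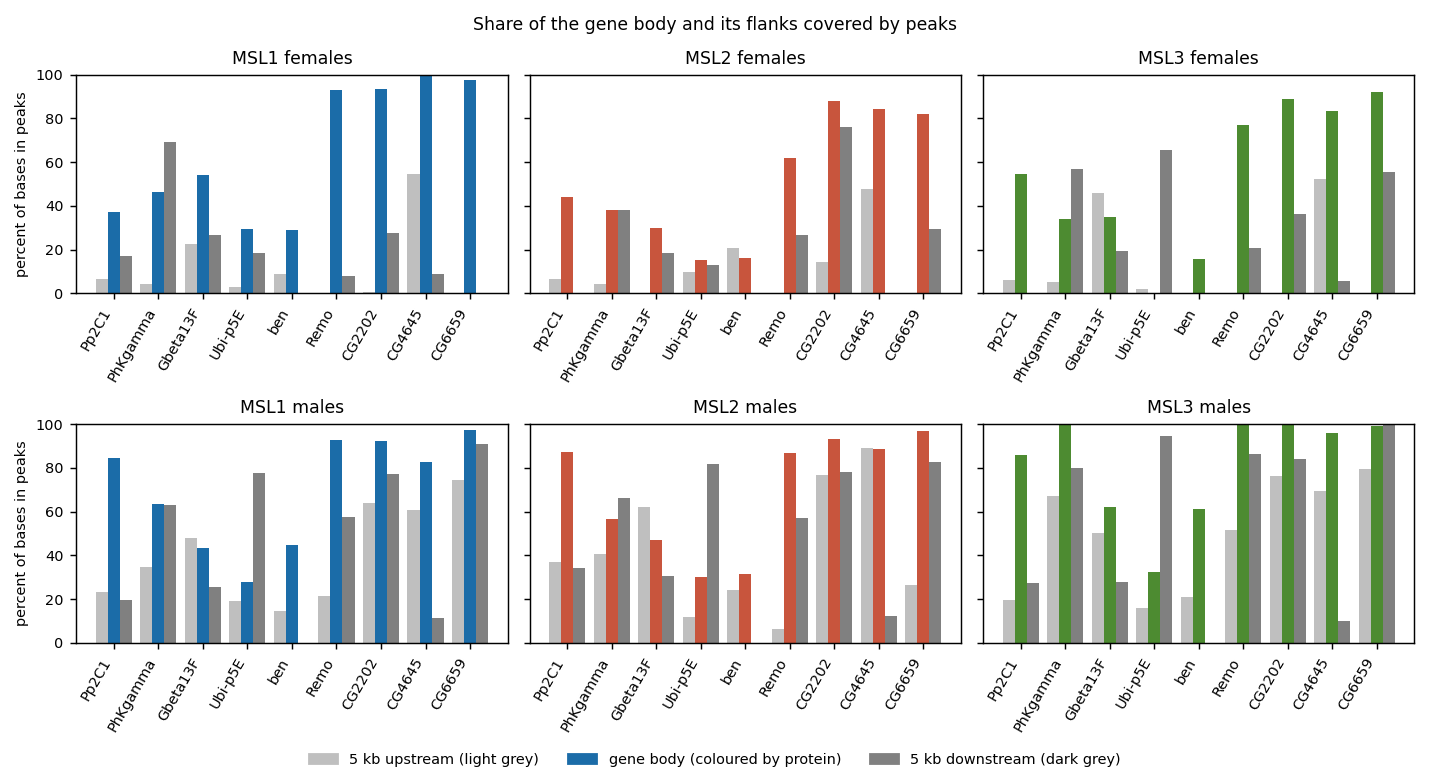
Percent of the bases of the gene body (coloured) and of the 5 kb upstream (light grey) and downstream (dark grey) that lie in peaks, for each gene and list. In females the gene bodies of Remo, CG2202, CG4645 and CG6659 are the most covered for each protein. In males flanks are covered too, apart from the downstream flank of ben at 0.

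The flanks were covered less than the bodies in most cases. In females the median coverage of the body was 53.9% (MSL1), 44.1% (MSL2) and 54.7% (MSL3), of the upstream flank 4.30%, 6.44% and 1.86%, and of the downstream flank 17.2%, 18.2% and 20.7%. The body was covered more than either flank at 8, 7 and 6 of 9 genes. In males the medians were 82.8%, 86.9% and 96.1% for the body, 34.5%, 37.0% and 51.6% upstream, and 57.8%, 57.2% and 79.9% downstream, and the body exceeded both flanks at 7, 5 and 7 genes. For the whole X chromosome, which includes sequence between genes, peaks covered 3.27%, 5.01% and 5.59% in females and 15.6%, 12.4% and 17.1% in males. Bodies and flanks of other X-linked genes were not measured. The genes were drawn to show binding, so the counts above do not set them apart from other genes. The male lists are longer, so the larger coverage in males cannot be told apart from the depth and the making of the lists.

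The edges of several peaks stood near gene ends, and those of others did not. How often this holds for other X-linked peaks was not counted. At CG6659 the MSL1 record over the site began 96 bp inside the lower end of the gene and ended 9 bp inside the upper end in females. In males it began 105 bp inside and ended 39 bp beyond. Female MSL3 began 208 bp and ended 104 bp inside. Farther edges were those of female MSL2, ending 1003 bp inside, of male MSL2, ending 1332 bp beyond, and of male MSL3, beginning 5196 bp before the gene. At CG2202 the lower edge of the record over the site was within 112 bp of that end of the gene in each of the 6 lists. Its upper edge was 2296 bp beyond the gene for male MSL3 and within 326 bp of the upper end in the other lists. At CG4645 the lower edge was within 132 bp in 5 lists and 1008 bp before the gene for male MSL2. Widths of the strongest peaks ran from 427 bp (ben, female MSL2) to 16710 bp (Ubi-p5E, male MSL3), with medians of 2571, 1782 and 1768 bp in females and 2493, 2886 and 5889 bp in males for MSL1, MSL2 and MSL3. At the inputs the median widths were 1782 and 1143 bp for female MSL2 and 5892 and 4242 bp for male MSL3. They were 2571 and 2780 bp for female MSL1, 1768 and 1711 bp for female MSL3, and 2930 and 2808 bp for male MSL2. Widths did not move more than summits at every record. For female MSL3 at Remo the input widths were 4921 and 4910 bp, with summits 4030 bp apart.

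The gene whose ranks were most like those of a member was found by the mean absolute difference of the percent ranks over the 6 lists. CG2202 and CG6659 were each closest to the other, with a difference of 0.254 percentage points, and CG4645 was closest to CG2202, with 0.527. Gbeta13F was closest to the window of Pp2C1, with 0.431. Pp2C1 itself was closest to CG1468 (0.366), PhKgamma to Atg8a (0.720), Remo to rdgA (2.08), ben to Coa7 (2.38) and Ubi-p5E to CG2200 (2.60). The strongest record of the window was used. The match of Ubi-p5E thus rests in part on the neighbouring records named above, and that of Gbeta13F on the female MSL3 record at Gapdh2. Neighbouring genes share peaks, so up to 5 other genes tied with these. roX1 and roX2 are the scale for a strong site: MSL2 ranked 1 at roX1 in both sexes, and 16 and 19 at roX2. Their MSL3 ranks were 167 and 214 in females and 8 and 225 in males, so that PhKgamma, CG2202, CG4645 and CG6659 had higher MSL3 ranks than both in females.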

How the data were processed

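ChIP-seq of MSL1, MSL2 and MSL3 was read from 6 peak lists on dm6, per the labels and methods of the study. The authors used cutadapt for trimming, Bowtie 2 for mapping, Picard for duplicates and MACS2 for peaks over IgG. IDR optimal sets were kept for 5 lists, and MSL1 in males had 1 replicate and no IDR. The deposited columns hold positions, a score, fold enrichment at the summit over IgG, and −log10 p and −log10 q values. Of these, the score was not used. In female lists positions and −log10 p are those of the first IDR input (100% of peaks), and in the male MSL2 and MSL3 lists no peak equals it. Genes came from Ensembl release 115 and sequence from RefSeq, whose X chromosome has the coordinates of dm6. For the 5 lists with IDR the 2 inputs gave the spread. Overlaps were computed in Python 3 and tested on simulated data with bedtools. The members, lists and rules were chosen with earlier results of these data known, and no test was run. Other genes are named only where the strongest summit of a window lies in them, for roX1 and roX2, or as the most alike gene. Flanks, list lengths, ranking, distances and repeat lengths were varied. Mutant libraries were not used here.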

Additional observations from a re-analysis of the deposited data

How the results depend on the processing

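A count was taken as changed when it moved by over 1.5 times, and so was a median over those of the 9 genes that had a value. By this measure 162 of 200 recomputed values did not change and 38 did. Some of the 162 could not change. Protein-coding genes as the background alter the share set beside a count but not the count. In the female lists the first IDR input holds the listed values themselves. The tally is therefore not a measure of how stable the results are. The counts of genes with peaks stayed at 8 or 9 of 9 under each flank, list length and −log10 q limit tried. Without a flank female MSL3 was at 8 genes, Ubi-p5E being the one lost. The counts of genes with MSL1 and MSL2 summits together, and with male and female summits together, did not change either. Female MSL3 and male MSL3 summits were together at 4 genes, and at 3 to 6 under the alternatives. The counts of genes with MSL3 and MSL2 summits together did change, under alternatives chosen after seeing the data. In females the count of 2 genes was 1 within 50 bp, 4 within 500 bp, 4 with the MSL3 record over the MSL2 summit of that sex and 7 with any pair of records, and in males the count of 3 was 6 within 500 bp, 5 with the record over the summit and 8 with any pair. The female median distance of 1329 bp was 399 bp by fold enrichment, 400.0 bp with the second inputs and 17 bp with any pair. With records over the gene body it was 864 bp, over 8 genes without Ubi-p5E. With the record over the summit it was 92 bp, over 7 genes without ben and Ubi-p5E. The male median distance of 358 bp was 59 bp with the record over the summit and 20 bp with any pair.

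The median rank of female MSL1, 43, was 67 when peaks were ranked by fold enrichment. That of female MSL3, 293, was 177.5 without a flank, over 8 genes without Ubi-p5E. It was 158 with a flank of 10 kb and 157 among X-linked peaks only. That of male MSL3, 76, was 152 without a flank and also 152 with a flank of 2 kb. With all peaks of the window in place of the strongest, the median widths in females were 1011 bp (MSL1), 687.5 bp (MSL2) and 887 bp (MSL3), and in males 917, 1098 and 1453.5 bp. The median share of the window in peaks was, without a flank, 53.9% (MSL1), 44.1% (MSL2) and 54.7% (MSL3) in females and 82.8%, 86.9% and 96.1% in males. With a flank of 10 kb it was 22.9% for female MSL1. With lists shortened to the 905 peaks of the shortest it was 16.98% for female MSL2, 26.4% for male MSL1 and 21.0% for male MSL2. With 6 alternating bases in place of 8, 4 genes had a GA run at the MSL2 summit in females and 4 in males, beside 23.7% and 26.7% of X-linked summits. Why these values moved was not tested, beyond what the narrower windows and shorter lists leave out.

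Ranks from the first and second IDR input, and protein-coding genes as the background, were chosen after seeing the data. No paired analysis was possible because each list pools its replicates and no test was run, and for the same reason no replicate was left out. The lists carry no read counts, so depth sets no interval here, and a peak that is not listed is not shown to be absent.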
